A study of Mus musculus with 9 samples.

Results

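Cells that carried both labels of the study were set against cells that carried only 1 of them. The 3 libraries of double-labelled cells, called overlap, were compared with the 6 single-label libraries, 3 called c-fos and 3 called mCherry, so that all 9 libraries of the series took part. The comparison was made to describe genes whose level in overlap cells lay outside both single-label groups, above or below, rather than between them. Of 7959 genes tested, 145 had all 3 overlap libraries above all 6 single-label libraries and 313 had all 3 below.

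The study concerns mouse neurons of the basolateral amygdala that its title links to visceral pain and itch. Laser capture took cells out of PFA-fixed frozen tissue, and each pool became a Smart-3SEQ library, a method that reads the 3′ ends of polyadenylated RNA. The design text speaks of CRD-labelled cells, His-labelled cells and cells with both marks, without tying either mark to mCherry or c-fos. The genotype field repeats only the group name. Strain, age, the route by which mCherry reached the cells, the stimulus, the number of cells in a library and the animal behind each library are not stated in the labels, so libraries may share animals and the p-values below measure only the spread between these libraries, which may be technical. Groups of cells also cannot show whether a lower level means fewer cells of a type or less RNA per cell.

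c-Fos is the protein of Fos, an immediate early gene that neurons switch on shortly after strong activity, and its staining is used to mark recently active cells. mCherry is a red fluorescent protein that marks cells by the route used to deliver it. A neuron carrying both marks is usually read as a recently active member of a labelled set. Immediate early genes encode transcription factors and synaptic proteins, and their promoters commonly hold the cAMP response element, the site bound by the factor CREB. Meg3 and Malat1 are long noncoding RNAs that are retained in the nucleus and are abundant in neurons.

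Levels are CPM, counts of a gene brought to a fixed total over tested genes and scaled by the TMM method, which sets a common level for the bulk of genes. Fold changes are log2, overlap over the equally weighted mean of c-fos and mCherry on the log2 scale, with standard errors. A gene is called here when its adjusted p in edgeR's quasi-likelihood test falls under 0.05 after Benjamini-Hochberg adjustment over all 7959 genes.

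Total counts were 90091, 225621 and 282974 in overlap 1, 2 and 3, 109091 to 304536 in c-fos and 198865 to 429317 in mCherry libraries. Spread between libraries was wide, with a biological coefficient of variation of 0.857. The 2 libraries overlap 1 and mCherry 3 stood apart in insulin transcripts, Ins1 and Ins2 summed, which reached 19647 CPM of the total count in overlap 1 and 8106 CPM in mCherry 3, against 247 to 990 CPM in the other 7. Fos itself had 641, 359.7 and 259 CPM in overlap, 399, 318 and 338 CPM in c-fos and 187, 64.6 and 56.6 CPM in mCherry libraries. Overlap and c-fos values were intermixed, while mCherry libraries held the lowest 3 values. Fos is the gene that 1 of the labels names. The cell type written in the labels is spermatocytes. Of 27 spermatocyte and germ cell genes, 7 had no count in any library, among them Sycp1, Spo11 and Stra8, and 1, Tnp2, was abundant enough to be tested. The 27 genes summed to 222 to 417 CPM of the total in overlap, 256 to 449 CPM in c-fos and 115 to 603 CPM in mCherry libraries. Neuronal markers were read in all groups, with 9 of 12 glutamatergic genes tested.

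By fitted level, overlap lay above both single-label groups for 2825 genes (35.5% of those tested), below both for 2867 (36%) and between them for 2267 (28.5%). With all 3 libraries of overlap required to clear all 6 others, 145 genes (1.82%) lay above and 313 (3.93%) below. The same count made for the other groups gave 103 genes above (1.29%) and 45 below (0.565%) for c-fos, and 258 above (3.24%) and 167 below (2.1%) for mCherry. Overlap thus had the larger number of genes on the low side of the 3 groups, and mCherry on the high side. That balance moved with the scale used. Above genes made up 31.7% of the outside genes with TMM, 25.7% with upper quartile scaling, 46.3% with library sizes only, 49.3% with DESeq2 size factors and 78.7% (395 above, 107 below) when the 200 most abundant genes set the scale, called the 200-gene scale below. These scalings shifted the median fold change of all genes by -0.10 (upper quartile), 0.15 (library sizes), 0.21 (DESeq2 size factors) and 0.63 (200-gene scale), and changes are best read relative to that shift. Over all genes 49.8% of fold changes were negative and 50.2% positive. Under all 5 scalings 111 genes lay above and 105 below.

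**Figure D1:**
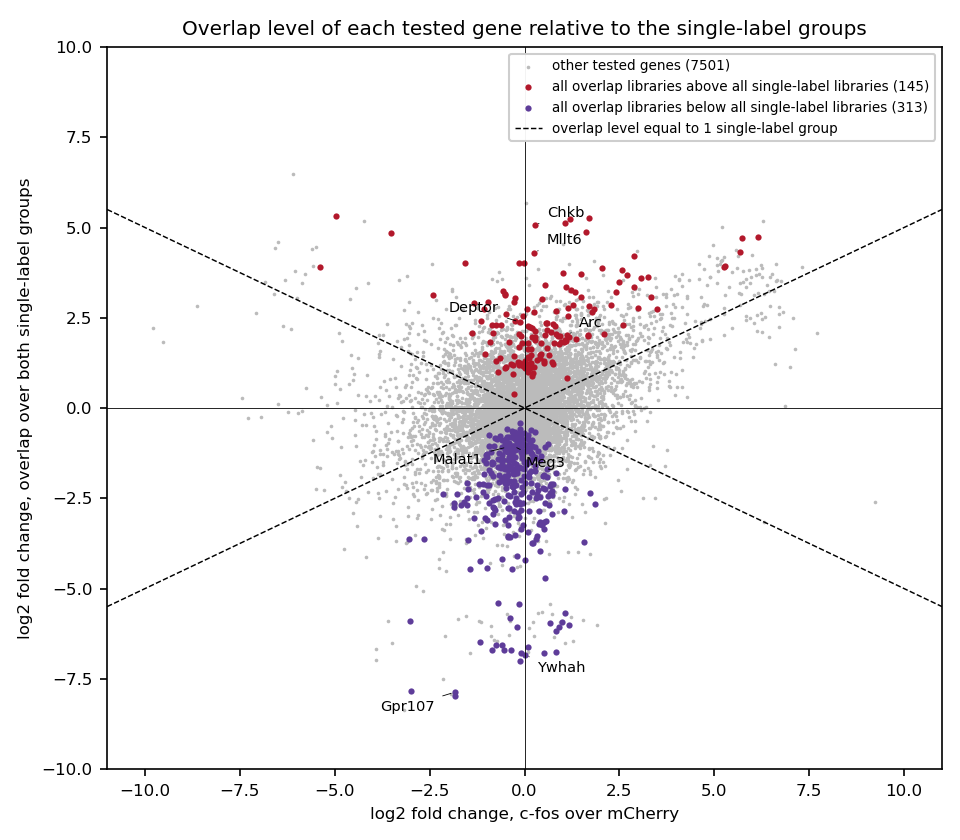
Each point is 1 of the 7959 tested genes, plotted by its log2 fold change of c-fos over mCherry (x axis) and of overlap over both single-label groups (y axis). Above the upper pair of dashed arms the fitted overlap level exceeds both groups, below the lower pair it is under both, and red and purple mark the 145 and 313 genes for which all 3 overlap libraries lay outside all 6 others.

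Tested across all genes with TMM, 2 were lower in overlap cells (0.0251% of those tested) and 0 were higher (0%). The smallest adjusted p among higher genes was 0.0599 in edgeR's test. At an unadjusted p under 0.05 there were 442 higher genes (5.55%) and 413 lower (5.19%). DESeq2 called 54 higher and 16 lower, neither of the pair called by edgeR among them, and limma-voom called 3 higher and 7 lower with both among them. With the other scalings edgeR called 0 genes (DESeq2 size factors), 2 (upper quartile), 8 (library sizes only) and 3 (200-gene scale). All of these were higher in overlap, and neither of the pair was among them. Against each single-label group in turn, 161 genes had lower values at an unadjusted p under 0.05 in both contrasts (2.02%) and 59 had higher values (0.741%), and 0 passed after adjustment in both (0%). Both contrasts share the overlap libraries. Against mCherry alone edgeR called 2 genes, both lower (0.0251%), and against c-fos alone 0 (0%), with a smallest adjusted p of 0.158.

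The called genes were Meg3 and Malat1, and both fell. Meg3, an imprinted long noncoding RNA expressed from the maternal chromosome and abundant in neurons, was the most abundant tested gene. It had 8004, 6479.5 and 6124 CPM in overlap 1, 2 and 3, 12014, 12637 and 13618 CPM in the c-fos libraries and 19950.0, 13934 and 13333 CPM in the mCherry libraries. The highest overlap library lay under the lowest of the 6 others, and mCherry 1 stood highest of all. Its fold change was -1.04 ± 0.14 (adjusted p = 0.0151), made up of -0.89 ± 0.16 against c-fos and -1.20 ± 0.16 against mCherry. Malat1, a long noncoding RNA of nuclear speckles, had 3453, 3519 and 2949.6 CPM in overlap, 5189, 5941 and 6826 CPM in c-fos and 9362, 7367 and 7596 CPM in mCherry libraries. No value of 1 group lay within the range of another, with overlap lowest and mCherry highest. The fold change of Malat1 was -1.08 ± 0.16 (adjusted p = 0.0159), with -0.86 ± 0.17 against c-fos and -1.29 ± 0.18 against mCherry. As a share of each library's total, Meg3 took 0.511% to 0.679% of counts in overlap and 0.711% to 1.68% in single-label libraries, and Malat1 took 0.246% to 0.338% in overlap and 0.405% to 0.790% in single-label libraries.

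Both calls were lost with DESeq2, with each of the other 4 scalings, with the stricter filter, with the single-label libraries pooled as 1 group, and without overlap 1 and mCherry 3 together. The direction stayed negative throughout, from -1.25 to -0.39 for Meg3 and from -1.18 to -0.43 for Malat1, the smallest sizes being those on the 200-gene scale. Leaving out overlap 1, overlap 3 or c-fos 2 singly ended the call of Malat1 (adjusted p of 0.0822, 0.0601 and 0.0657). Both genes overlap annotated genes on either strand, and whether strand was used in counting is not stated in the labels.

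**Figure D2:**
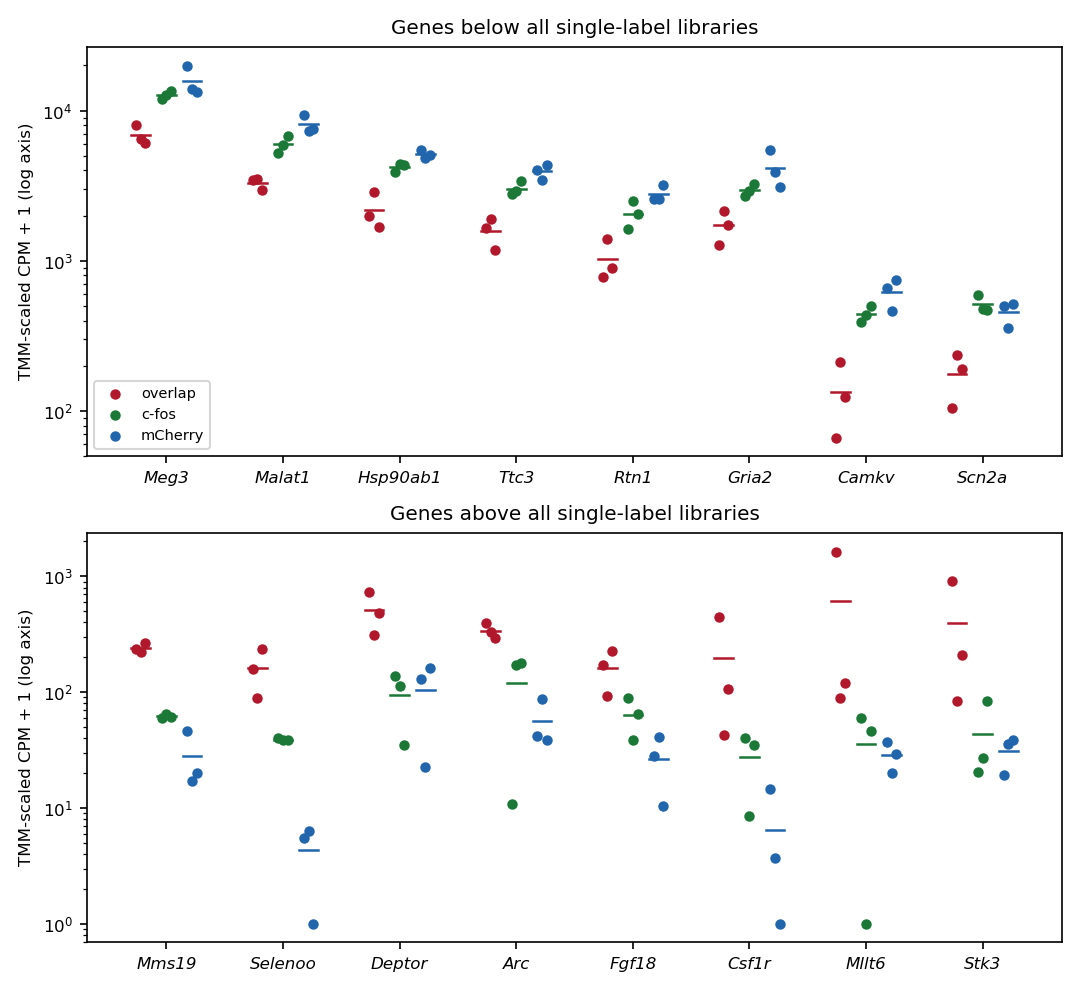
TMM-scaled CPM plus 1 (log axis) of 16 genes in each library, overlap left, c-fos in the middle and mCherry right; points are libraries and short lines group means. Meg3 and Malat1 in the upper panel passed the test across all genes; in the lower panel Mms19 and Arc have 3 similar overlap libraries, while Mllt6, Stk3 and Csf1r have overlap 1 far above the other libraries.

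The promoter windows of both called genes are shown because the cAMP response element is the best known site of activity-dependent transcription. Another window belongs to Ywhah, which had no count in any overlap library and is described further on. The windows run from 250 bases before to 50 after the start in RefSeq (GRCm38.p6), are written 5′ to 3′ along the transcribed strand, and carry the cAMP response element TGACGTCA in capitals where they hold it. Meg3 on chr12:109540746-109541045 (plus strand) holds it 57 bases before the start, Malat1 on chr19:5802623-5802922 (minus strand) holds none, and Ywhah on chr5:33018566-33018865 (plus strand) holds it 96 bases before the start.
Meg3: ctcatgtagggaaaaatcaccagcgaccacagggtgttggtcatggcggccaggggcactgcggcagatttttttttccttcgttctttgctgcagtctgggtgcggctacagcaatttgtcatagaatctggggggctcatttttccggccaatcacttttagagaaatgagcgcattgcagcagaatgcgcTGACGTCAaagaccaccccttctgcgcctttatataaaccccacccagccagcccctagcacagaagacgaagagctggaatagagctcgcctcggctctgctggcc
Malat1: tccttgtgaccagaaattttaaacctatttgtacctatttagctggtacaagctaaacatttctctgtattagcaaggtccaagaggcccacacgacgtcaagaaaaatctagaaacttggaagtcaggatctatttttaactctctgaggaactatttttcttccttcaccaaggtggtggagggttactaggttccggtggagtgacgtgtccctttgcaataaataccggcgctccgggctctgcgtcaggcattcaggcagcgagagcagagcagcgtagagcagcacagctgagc
Ywhah: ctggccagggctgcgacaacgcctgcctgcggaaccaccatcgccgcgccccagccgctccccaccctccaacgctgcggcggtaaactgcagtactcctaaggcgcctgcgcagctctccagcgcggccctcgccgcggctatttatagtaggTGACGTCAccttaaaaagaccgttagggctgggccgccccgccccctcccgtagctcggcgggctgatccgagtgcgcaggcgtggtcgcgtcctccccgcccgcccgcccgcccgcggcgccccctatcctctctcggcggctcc
The motif reads the same on both strands and was searched as these 8 letters. It was found in 1.79% of 32851 RefSeq promoters and in 3.13% of the 6867 promoters of tested genes. Genes above had it in 4 of 95 promoters (4.21%) and genes below in 11 of 318 (3.46%), shares close to that of all tested genes. A second annotated Meg3 start, on chr12:109545148-109545447, had no such motif in its window. Of the 80 genes named by rule, 57 had a promoter in the table, and Meg3 and Ywhah were those that held the motif.

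Of 9 tested members of a list of abundant nuclear long noncoding RNAs, 8 had negative fold changes and 1 positive, with a median of -0.73 against 0.01 over all tested genes. Without Meg3 and Malat1 6 were negative and 1 positive, with a median of -0.45. All long noncoding RNAs other than these 2 held 8.23% ± 0.842 of counts in overlap (SD, n = 3) and 6.46% ± 1.10 in single-label libraries (n = 6; exact permutation p = 0.0595, adjusted 0.129). The 9 tested members of the nuclear list, Meg3 and Malat1 included, were also summed. Their sums reached 13013, 12433 and 11460.0 CPM in overlap, 20514, 21553 and 23945 CPM in c-fos and 34008, 24924 and 24713 CPM in mCherry libraries. All 3 overlap sums lay below all 6 others. Meg3 and Malat1 made up most of these sums. Snhg11, a neuronal host gene of small nucleolar RNAs, had 379, 1088 and 568 CPM in overlap, 1558, 1080.5 and 1471 CPM in c-fos and 2695, 1904 and 1764 CPM in mCherry libraries (fold change -1.32 ± 0.34, adjusted p = 0.256), with overlap 2 just above c-fos 2. Mirg, which shares the imprinted domain of Meg3, had 0, 0 and 21.2 CPM in overlap, 68.2, 86.0 and 165 CPM in c-fos and 31.9, 26.9 and 28.3 CPM in mCherry libraries. Rian, another noncoding RNA of that domain, was intermixed between groups at -0.45 ± 0.78. Miat was the exception in the list, with 209, 46.1 and 89.0 CPM in overlap, 0, 18.7 and 18.8 CPM in c-fos and 18.2, 37.7 and 37.7 CPM in mCherry libraries (2.41 ± 0.97, adjusted p = 0.379). Only Meg3 and Malat1 passed the test in this list. Its median stayed negative under all 18 other settings in which list medians were computed, from -1.05 to -0.12.

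The next genes below both groups were abundant and of similar size of change, and none passed the test. Hsp90ab1, a constitutive cytosolic heat shock chaperone, had 1975, 2864 and 1687 CPM in overlap, 3933, 4434 and 4327 CPM in c-fos and 5454, 4870.0 and 5077 CPM in mCherry libraries. Overlap lay lowest, with overlap 2 closest to the others, and the fold change was -1.10 ± 0.19 (adjusted p = 0.0599). The call appeared in 5 of 20 other settings, limma-voom and the fit with replicate numbers as a block among them. Ttc3, a ubiquitin ligase of the Down syndrome region in human, had 1648, 1909 and 1178 CPM in overlap, 2775, 2924 and 3381 CPM in c-fos and 4040.1, 3442 and 4350.0 CPM in mCherry libraries (-1.13 ± 0.21, adjusted p = 0.0795). Rtn1, a reticulon of the neuronal endoplasmic reticulum, had 785, 1397 and 894 CPM in overlap, 1636, 2497 and 2060.2 CPM in c-fos and 2595, 2564 and 3180.0 CPM in mCherry libraries (-1.22 ± 0.26, adjusted p = 0.166). For each of these genes the 3 groups stood in the order overlap, c-fos, mCherry by mean. limma-voom called Ttc3 and Rtn1 too.

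Chd3, a chromatin remodeller of the NuRD complex, had 3871, 4376 and 2589 CPM in overlap, 9229.7, 6434 and 6409 CPM in c-fos and 10151, 6168 and 5728 CPM in mCherry libraries, c-fos and mCherry averaging alike (-1.03 ± 0.22, adjusted p = 0.166). Dync1i2, an intermediate chain of cytoplasmic dynein, stood at 994, 1111 and 792 CPM in overlap, 1928, 2086 and 1899 CPM in c-fos and 2453, 1684 and 2906 CPM in mCherry libraries (-1.15 ± 0.26). Ahi1, a ciliary scaffold protein, had 1622, 1291 and 924 CPM in overlap, 2346, 2591 and 2878 CPM in c-fos and 3388, 2435 and 1982 CPM in mCherry libraries (-1.03 ± 0.25). Luc7l2, a splicing factor of the U1 complex, came to -1.29 ± 0.30, with overlap 2 at 1065 CPM and c-fos 3 at 1268 CPM as the nearest values. Adjusted p of these 4 genes ran from 0.166 to 0.217, while limma-voom called Chd3 and Ahi1 and the fit with a replicate block called Chd3. Of the genes in this and the preceding paragraph, Ttc3, Rtn1 and Dync1i2 lay below under all 5 scalings, as Malat1 did. Meg3, Chd3, Ahi1 and Luc7l2 no longer lay wholly below on the 200-gene scale. With library sizes only this held for Hsp90ab1, Chd3, Ahi1 and Luc7l2, and with upper quartile scaling for Ahi1.

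On the TMM scale, genes below were most frequent among abundant genes. The rank was taken from mean CPM over all 9 libraries, 6 of them single-label, so it is not independent of the fold change. Full separation of libraries is also easier to reach at high counts. The part of either in these shares was not tested. Of the 200 tested genes of highest mean level, 47 (23.5%) lay below and 1 (0.5%) above, with a median fold change of -0.60 and 170 negative values. The next 800 had 62 below (7.75%) and 9 above (1.12%), with a median of -0.41. The following 2000 had 63 below (3.15%) and 49 above (2.45%), and the remaining 4959 genes had 141 below (2.84%) and 86 above (1.73%), with a median of 0.17. On the 200-gene scale, the medians of the first 2 classes were 0.04 and 0.23 and that of all genes 0.64, since a change of scale moves all genes by about the same amount. By gene type, 289 of 6426 protein-coding genes lay below (4.5%) and 100 above (1.56%), with a median of -0.08. Long noncoding RNAs had 10 of 626 below (1.6%) and 20 above (3.19%), with a median of 0.49, and pseudogenes 3 of 448 below (0.67%) and 16 above (3.57%), with a median of 0.71.

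**Figure D3:**
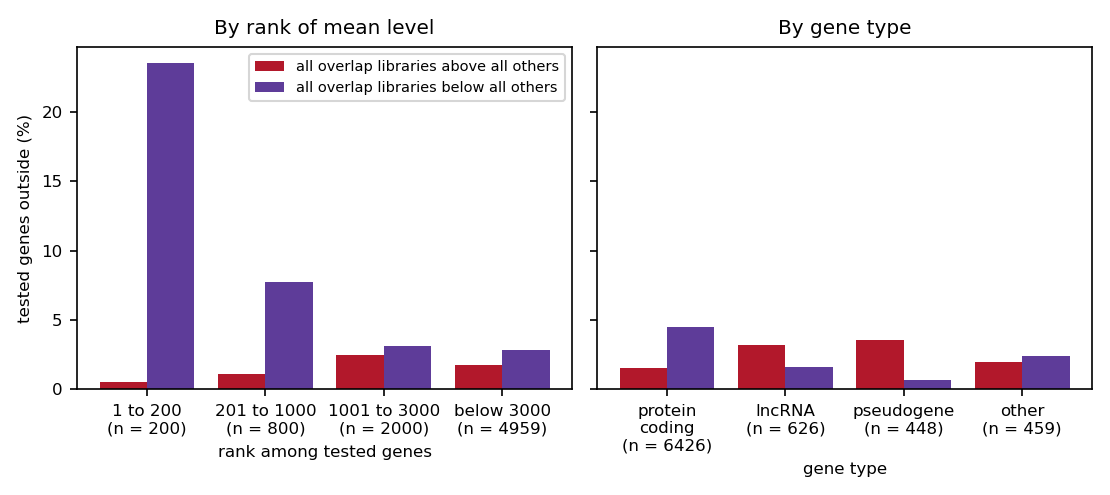
Percent of tested genes for which all 3 overlap libraries lay above (red) or below (purple) all 6 single-label libraries, by rank of mean level (left) and by gene type (right), with the number of genes in each class. Genes below reach 23.5% in the first abundance class against 0.5% above, and pseudogenes and lncRNAs are the types with more genes above than below.

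Whole-library make-up moved the same way, and its part in the fold changes was not tested. The 200 most abundant genes held 16.7% ± 2.49 of counts in overlap (SD, n = 3) and 17.6% to 27.2% in the 6 single-label libraries, and pseudogenes held 6.07% ± 0.480 in overlap and 4.16% ± 1.06 in single-label libraries. Exact two-sided permutation tests over the 84 splits of 3 against 6 gave p = 0.0714 and 0.0476. A single split of the 84 sets the smallest possible p of such a test. After adjustment over 9 library measures p was 0.129 for each. Library mCherry 3, at 17.6% and 6.05%, lay within the range of overlap for both. When every library was thinned to 90091 counts, overlap held 10945 ± 1203 detected genes and single-label libraries 11914 ± 1362 (exact permutation p = 0.333, adjusted 0.375). Without mCherry 3 the difference of -1478.2 genes, overlap minus single-label, had an exact permutation p of 0.0357.

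**Figure D4:**
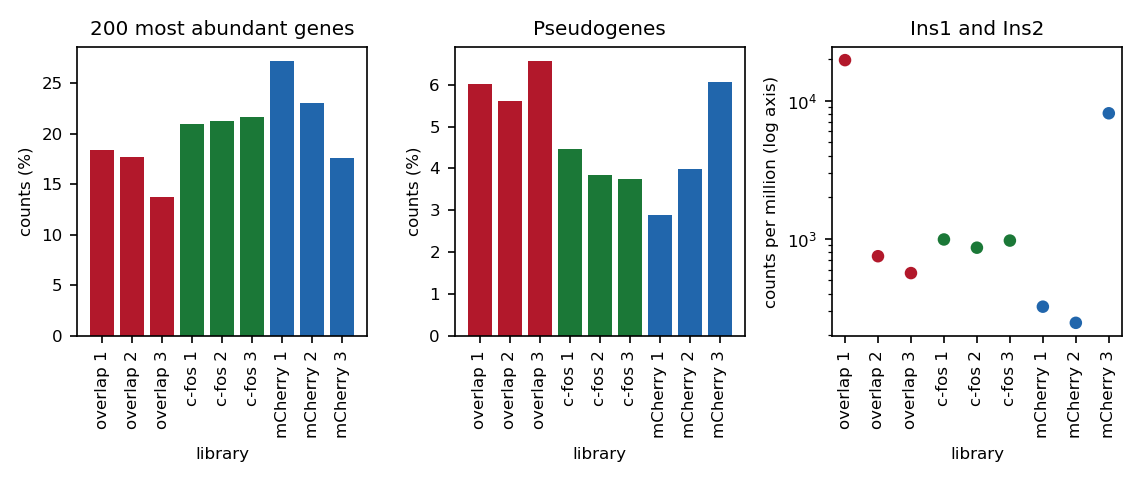
Share of each library's counts in the 200 most abundant genes (left) and in pseudogenes (middle), in percent, and CPM of Ins1 and Ins2 summed (right, log axis), overlap in red, c-fos in green and mCherry in blue. Overlap and mCherry 3 have low shares in the left panel and high shares in the middle one, and overlap 1 and mCherry 3 stand out on the right.

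Receptors and channels of the synapse lay on the low side, with 0 members passing edgeR's test. At an unadjusted p under 0.05, 3 glutamate receptor, 2 GABA receptor and 3 sodium or calcium channel genes had lower values (13%, 20% and 13% of those tested) and 0 had higher ones, against 5.19% lower and 5.55% higher of all tested genes. The median rank in abundance was 2063 for glutamate receptor, 849 for synaptic vesicle and 1119 for postsynaptic density genes. It was 1551.5 for GABA receptor and 1451 for sodium and calcium channel genes. Median fold changes were -0.60 for the 200 most abundant genes, -0.41 for the next 800 and -0.04 for the 2000 after those. Synaptic vesicle genes, by median rank within the next 800, had a less negative median than that class, -0.26. The other lists given here fell by median rank among the 2000, and their medians were more negative than -0.04. These were -0.22 for glutamate receptor, -0.12 for postsynaptic density, -0.70 for GABA receptor and -0.46 for sodium and calcium channel genes. Members of a list span several classes, so a class median is not a matched comparison. The part of abundance in the list medians was not tested. Of 23 tested glutamate receptor genes, 17 were negative and 6 positive, with a median of -0.22, which turned to 0.05 with DESeq2 size factors and to 0.45 on the 200-gene scale. Summed over tested members they reached 5349, 6383 and 6518 CPM in overlap, 7166, 7765 and 8469.6 CPM in c-fos and 13612, 12366 and 12805 CPM in mCherry libraries, so that every overlap library lay below every other. Gria2, the AMPA receptor subunit that limits calcium entry, had 1282, 2158 and 1738 CPM in overlap, 2716, 2897 and 3246 CPM in c-fos and 5431, 3900.3 and 3114 CPM in mCherry libraries (-1.02 ± 0.23, adjusted p = 0.183). It was the 1 member of 23 below both groups, where 3.93% of all tested genes lay there. Frrs1l, which helps assemble AMPA receptors, was at -0.53 ± 0.31 against c-fos and -1.70 ± 0.31 against mCherry, with overlap 2 at 835 CPM above c-fos 1 at 808 CPM. Nptxr, the neuronal pentraxin receptor, differed mainly from mCherry, -1.71 ± 0.34 there and -0.33 ± 0.34 against c-fos.

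GABA receptor genes were negative for 9 of 10 tested members, with a median of -0.70 that stayed negative under the other settings (-0.92 to -0.06). Below both groups lay 3 of the 10, Gabra2, Gabrb1 and Gabbr1, where 3.93% of all tested genes lay. Gabrb1, a beta subunit of the GABA-A receptor, had 39.2, 23.1 and 8.48 CPM in overlap, 127, 153 and 146 CPM in c-fos and 59.3, 132 and 75.5 CPM in mCherry libraries (-2.34 ± 0.87, adjusted p = 0.353). All 3 overlap values were lower than the lowest single-label value, mCherry 1. Gabra2, an alpha subunit, had 889, 1121 and 695 CPM in overlap, 1159, 1166 and 1614 CPM in c-fos and 1783, 1336 and 1595 CPM in mCherry libraries (-0.67 ± 0.28), overlap 2 lying just under c-fos 1. Of 23 sodium and calcium channel genes 15 were negative, with a median of -0.46 (0.19 on the 200-gene scale), and 3 lay below, Cacnb2, Scn2a and Cacna1d. Scn2a, a voltage-gated sodium channel of the axon, had 105, 235 and 191 CPM in overlap, 594, 479 and 469 CPM in c-fos and 497, 356 and 519 CPM in mCherry libraries (-1.43 ± 0.47, adjusted p = 0.338). It lay below under all 5 scalings. Cacnb2, an auxiliary calcium channel subunit, had 1 count over the 3 overlap libraries and 191 over the 6 others, a ratio of 0.0132 of scaled levels with an exact 95% interval of 0.000332 to 0.0744 that covers counting error only. Its single-label values were 38.9, 63.6 and 48.8 CPM in c-fos and 63.8, 56.6 and 1151 CPM in mCherry libraries, mCherry 3 far above the rest, and without mCherry 3 the ratio was 0.0336 (0.000839 to 0.194).

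Potassium channel genes were negative for 15 of 21 (median -0.33, and 0.32 on the 200-gene scale). Kcnn2, a calcium-activated potassium channel, stood out upward in 2 libraries, with 0, 189 and 526 CPM in overlap, 9.74, 41.1 and 37.5 CPM in c-fos and 45.6, 53.9 and 18.9 CPM in mCherry libraries. Overlap 1 held none, so the groups overlapped. Synaptic vesicle genes were negative for 27 of 43 (median -0.26, and 0.35 on the 200-gene scale). Vamp2 and Erc2 lay below and Sypl above both groups. These were 2 and 1 of 43, where 3.93% and 1.82% of all tested genes lay below and above. Vamp2, the vesicle SNARE protein, had 65.4, 212 and 102 CPM in overlap, 224, 351 and 409 CPM in c-fos and 442, 461 and 613 CPM in mCherry libraries (-1.66 ± 0.55, adjusted p = 0.338). Postsynaptic density genes were negative for 16 of 27 (median -0.12). That median was positive under DESeq2 size factors (0.07), library sizes (0.08), the stricter filter (0.01) and the 200-gene scale (0.49). Shank1, a scaffold of that density, had 523, 1185 and 639.9 CPM in overlap, 2045, 1473 and 1385 CPM in c-fos and 1979, 1622 and 1604 CPM in mCherry libraries (-1.10 ± 0.31, adjusted p = 0.299), and Cnksr2 was the other member below.

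Ion pumps, chaperones, calmodulin proteins and the cytoskeleton also leaned low, again with 0 members called by edgeR, though limma-voom called Hsp90ab1. At an unadjusted p under 0.05, 3 pump, 3 chaperone, 3 calmodulin and 7 cytoskeletal genes had lower values (30%, 21.4%, 18.8% and 31.8% of those tested), against 5.19% of all tested genes. The 200 most abundant genes of any kind had a median of -0.60, and pump and cytoskeletal genes had median ranks of 391.5 and 496.5. Of 10 tested pump genes 9 were negative, with a median of -0.78 that stayed negative in the other settings (-1.03 to -0.13), and 4 lay below both groups, Atp2b1, Atp2b3 and Atp2b4 among them. Atp2b1, a calcium pump of the plasma membrane, had 1125, 1407 and 1076 CPM in overlap, 1626, 1802 and 2041 CPM in c-fos and 3059.7, 2249 and 2387 CPM in mCherry libraries (-0.85 ± 0.23, adjusted p = 0.297). Atp2b4, of the same family, had 405, 590.3 and 712 CPM in overlap, 1207, 845 and 1002 CPM in c-fos and 1190.2, 1158 and 1170.1 CPM in mCherry libraries (-0.93 ± 0.32). Summed over tested members the pumps reached 3858, 5169.7 and 4013 CPM in overlap, 6912, 6356 and 6691 CPM in c-fos and 8778, 8062 and 9134 CPM in mCherry libraries. Overlap sums were below all others on this scale, while as a share of total counts, over all 11 genes, overlap 2 at 4977 CPM exceeded mCherry 3 at 4868 CPM.

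Heat shock chaperones were negative for 9 of 14 (median -0.87, and -1.09 to -0.22 in other settings), with Hsp90ab1 and Hspa9, a mitochondrial chaperone, below both groups. Cytoskeletal genes of microtubules and neurofilaments were negative for 19 of 22 (median -0.61, and 0.03 on the 200-gene scale). Map1a and Nefh lay below both groups. Map1a, which binds microtubules in mature neurons, had 732, 687 and 500.1 CPM in overlap, 1266, 849 and 769 CPM in c-fos and 2289, 1675 and 1566 CPM in mCherry libraries (-1.06 ± 0.31), with overlap 1 nearest to c-fos 3. Kif5a, a kinesin of axonal transport, was at -1.19 ± 0.30, with overlap 2 at 1324 CPM slightly above c-fos 3 at 1321 CPM. Of 16 genes of calmodulin, its kinases and calcineurin 12 were negative (median -0.56, and 0.03 on the 200-gene scale). Camkv, a kinase-like protein that binds calmodulin, had 65.4, 212 and 123 CPM in overlap, 389, 437 and 503 CPM in c-fos and 661, 461 and 745 CPM in mCherry libraries (-1.94 ± 0.50, adjusted p = 0.259). Overlap lay far below, under all 5 scalings. Nrgn, which binds calmodulin in dendritic spines, had 222, 493 and 475 CPM in overlap, 584, 748 and 743 CPM in c-fos and 1017, 1247 and 859 CPM in mCherry libraries (-1.09 ± 0.38). F-box genes of ubiquitin ligases, of median rank 2881.5, were negative for 12 of 14 (median -0.92, and -1.21 to -0.22 in other settings). Fbxo21 lay below both groups, and Fbxo8 had 1112, 83.0 and 72.0 CPM in overlap, overlap 1 standing highest.

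**Figure D5:**
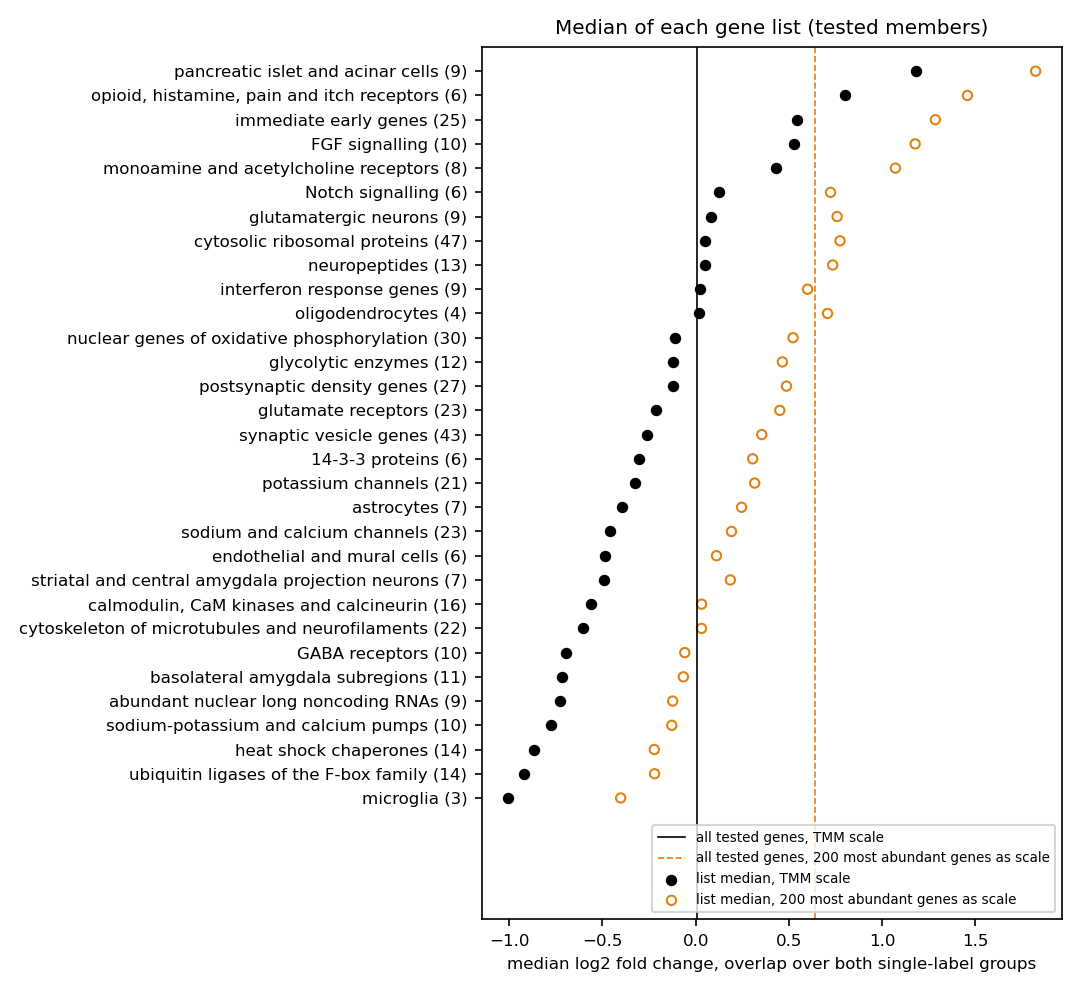
Median log2 fold change, overlap over both single-label groups, of each gene list with at least 3 tested members (number in brackets), on the TMM scale (black) and on the 200-gene scale (orange). Lines give the median of all tested genes, 0.01 and 0.64; the change of scale moves all lists by about the same amount, and pumps, chaperones and F-box ligases are among the lowest.

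At the low end, 23 of the 313 genes below had no count in any overlap library and 30 had 1 to 3 in all. Gpr107, a membrane protein of the secretory pathway, had none, against 68.2, 41.1 and 113 CPM in c-fos and 50.2, 53.9 and 708 CPM in mCherry libraries, at least 20.4-fold lower when 3 counts over the group are taken as floor. Its mCherry 3 value was the highest by far, and without that library the bound was at least 11.4-fold. Ywhah, the eta form of the 14-3-3 proteins, had none against 97.4, 44.9 and 67.5 CPM in c-fos and 68.4, 88.9 and 47.2 CPM in mCherry libraries, at least 12.3-fold lower. Its 6 single-label values lay between 44.9 and 97.4 CPM. The other tested 14-3-3 genes gave 2 positive and 3 negative values. Rps15a, a protein of the small ribosomal subunit, had none in overlap, with 9.74, 78.5 and 52.5 CPM in c-fos and 18.2, 10.8 and 1161 CPM in mCherry libraries, a bound of at least 22.1-fold that fell to at least 6.33-fold without mCherry 3. Ribosomal protein genes as a list were balanced, 26 positive and 21 negative of 47 (median 0.05, negative in 4 of 18 other settings). Rps15a and Rpl4 lay below both groups, 2 of the 47, where 3.93% of all tested genes lay. Rpl24 of that list held no count in any library. The adjusted p of Gpr107, Ywhah and Rps15a ran from 0.197 to 0.303.

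Genes above both groups were mostly of low to middle abundance, and in 77 of the 145 overlap 1 was the highest library, in 53 overlap 3 and in 15 overlap 2. In 15 the highest overlap library exceeded 3 times the next. Among the genes named here, those without a single dominant overlap library are described first. Mms19, a factor of cytosolic iron-sulfur cluster assembly, had 235, 221 and 267 CPM in overlap, 58.4, 63.6 and 60.0 CPM in c-fos and 45.6, 16.2 and 18.9 CPM in mCherry libraries. The lowest overlap library was more than 3 times the highest other, and the fold change was 2.55 ± 0.64 (adjusted p = 0.217). Its reads cannot be told from those of Zdhhc16 on the opposite strand if strand was ignored. Deptor, an inhibitor of the kinase mTOR, had 732, 309 and 483 CPM in overlap, 136, 112 and 33.8 CPM in c-fos and 128, 21.5 and 160.4 CPM in mCherry libraries (2.38 ± 0.65, adjusted p = 0.279). It lay above with all 5 scalings, and DESeq2 and limma-voom called it. Cntnap5a, a contactin-associated cell adhesion protein, had 432, 378 and 381 CPM in overlap, 195, 209 and 206 CPM in c-fos and 173, 213 and 189 CPM in mCherry libraries. The 3 overlap and 6 other values each formed a tight set, with a fold change of 1.00 ± 0.47 (adjusted p = 0.455).

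Selenoo, a mitochondrial selenoprotein, had 157, 87.6 and 233 CPM in overlap, 38.9, 37.4 and 37.5 CPM in c-fos and 4.56, 5.39 and 0 CPM in mCherry libraries (3.59 ± 0.84, adjusted p = 0.197). Ppl, the cytolinker periplakin, had 157, 115 and 216 CPM in overlap, 107, 22.4 and 56.3 CPM in c-fos and 9.12, 5.39 and 0 CPM in mCherry libraries (3.09 ± 0.83). c-fos 1 lay just under overlap 2 for this gene. Chkb, a choline kinase of phosphatidylcholine synthesis, had 301, 189 and 97.5 CPM in overlap, and 7 counts in all over the 6 other libraries, c-fos 2 at 15.0 CPM and mCherry 1 at 13.7 CPM. Its fold change was 5.07 ± 1.13 (adjusted p = 0.169), and DESeq2 and limma-voom called it. Shcbp1, which binds the adaptor Shc, had 157, 73.8 and 139.8 CPM in overlap and 4 counts over the others (5.25 ± 1.23). Cmtm8 and Olfr23 had positive values of 3.69 ± 0.91 and 4.74 ± 1.11. For Olfr23, annotated as an olfactory receptor, c-fos 3 at 75.1 CPM came close to overlap 3 at 80.5 CPM and mCherry held no count.

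In a further set overlap 1 stood far above the other libraries. It is the shallowest library and one of the pair that stood apart in insulin transcripts. Without it the fold changes were 1.74 for Mllt6, 1.97 for Stk3, 1.62 for Ypel1, 1.84 for Arhgef6 and 2.49 for Csf1r. Mllt6, a partner of the histone methyltransferase Dot1l, had 1635, 87.6 and 119 CPM in overlap, 58.4, 0 and 45.0 CPM in c-fos and 36.5, 18.9 and 28.3 CPM in mCherry libraries (4.31 ± 0.97, adjusted p = 0.169). Stk3, a kinase of the Hippo pathway, had 902, 83.0 and 208 CPM in overlap, 19.5, 26.2 and 82.6 CPM in c-fos and 18.2, 35.0 and 37.7 CPM in mCherry libraries (3.41 ± 0.76). c-fos 3 was within 1 CPM of overlap 2. Ypel1 and Arhgef6, the second an exchange factor for Rac, showed the same form, with 955, 87.6 and 195 CPM and 837, 87.6 and 50.9 CPM in the 3 overlap libraries. Csf1r, the receptor for colony stimulating factor that marks microglia, had 445, 41.5 and 106 CPM in overlap, 38.9, 7.48 and 33.8 CPM in c-fos and 13.7, 2.69 and 0 CPM in mCherry libraries (3.89 ± 0.99, adjusted p = 0.238). It was the 1 of 3 tested microglial genes that lay above, Cx3cr1 and C1qa having negative values. Of the 12 listed genes 7 held no count in overlap, among them Tmem119, Aif1, C1qb, Tyrobp and Ctss. P2ry12 was also among the 7 and held no count in any library. Summed microglial markers stood at 226 to 511 CPM of the total in overlap, 158 to 486 CPM in c-fos and 121 to 277 CPM in mCherry libraries.

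Within the 1000 most abundant genes, 10 lay above (1%) and 109 below (10.9%) with TMM. Under all 5 scalings 6 of them lay above and 13 below. Beside Mllt6, Deptor and Cntnap5a, the 10 genes above with TMM included Mbtd1, Itga1, Nfia, Trmt1l and Spag9. Mbtd1, a reader of methylated histones, had 405, 235 and 496 CPM in overlap, 156, 127 and 229 CPM in c-fos and 114, 154 and 56.6 CPM in mCherry libraries (1.46 ± 0.55). The lowest overlap library, overlap 2, was only slightly above c-fos 3. Spag9, a scaffold of JNK signalling, was separated by a narrow margin, overlap 1 at 575.4 CPM and mCherry 1 at 574.6 CPM (0.38 ± 0.35, adjusted p = 0.737). Nfia and Itga1, a transcription factor and an integrin, had 680.1, 217 and 246 CPM and 798, 291 and 288 CPM in overlap, with overlap 1 highest in both.

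Immediate early genes were positive for 22 of 25 tested members, with a median of 0.54 that stayed positive in the other settings (0.41 to 1.29). Above all 6 single-label libraries lay 2 of the 25 (8%), against 1.82% of all tested genes. For 13 members the fitted overlap level lay between c-fos and mCherry, for 10 above both and for 2 below both, against 28.5%, 35.5% and 36% of all tested genes. The median was 1.57 against mCherry and -0.17 against c-fos, so the positive pooled value came from the mCherry side. The list is not independent of the c-fos label, which overlap cells carry. Summed over tested members the list reached 6134, 4483 and 5339.9 CPM in overlap, 4109, 5765 and 6008 CPM in c-fos and 2271, 1449 and 2236 CPM in mCherry libraries. Overlap was intermixed with c-fos, and both lay above mCherry.

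Of the 25, Arc and Dusp1 lay above both groups in all libraries. Arc, which forms capsids and regulates AMPA receptor endocytosis, had 392, 332 and 292 CPM in overlap, 9.74, 172 and 176 CPM in c-fos and 41.0, 86.2 and 37.7 CPM in mCherry libraries (2.02 ± 0.69, adjusted p = 0.339). It lay above under all 5 scalings. Against c-fos alone the fold change of Arc was 1.47 ± 0.84, less than 2 standard errors. Dusp1, a phosphatase that inactivates MAP kinases, had 196, 41.5 and 93.2 CPM in overlap, 38.9, 37.4 and 22.5 CPM in c-fos and 18.2, 0 and 0 CPM in mCherry libraries (2.84 ± 1.09). Overlap 2 and c-fos 1 were close. Npas4, a neuronal activity-dependent transcription factor, was at 0.47 ± 0.99 against c-fos and 4.76 ± 1.22 against mCherry, and Sik1, a salt-inducible kinase, at 1.37 ± 1.08 and 5.23 ± 1.35. Egr1 was at -0.95 ± 0.55 and 1.57 ± 0.57. Of the 25 members, 7 had higher values at an unadjusted p under 0.05 in the pooled contrast (28%, against 5.55% of all tested genes), 0 passed over all genes in edgeR, and 0 members had a negative value with such a p.

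The genes in the title of the series were too rare to test. Fgf2, a fibroblast growth factor ligand, had 0 counts in each overlap library, 5, 6 and 22 in c-fos 1, 2 and 3 and 0 in each mCherry library. Notch2, a Notch receptor, had 1, 2 and 0 counts in overlap 1, 2 and 3, 0, 1 and 0 in c-fos 1, 2 and 3 and 24, 0 and 33 in mCherry 1, 2 and 3. Counts of Fgf2 were confined to c-fos libraries, and most Notch2 counts came from mCherry 1 and 3. Overlap was at or near 0 for both genes, as mCherry was for Fgf2 and c-fos for Notch2, and 0 counts over a group allow up to 3. Among 10 tested FGF genes 8 were positive, with a median of 0.53 that stayed positive in the other settings (0.20 to 1.18). Fgf18, an FGF ligand, had 170.0, 92.2 and 225 CPM in overlap, 87.6, 37.4 and 63.8 CPM in c-fos and 27.4, 40.4 and 9.44 CPM in mCherry libraries (1.97 ± 0.73, adjusted p = 0.353), and was the 1 member above both groups. Fgf9, another ligand, had 26.2, 152 and 263 CPM in overlap, 127, 153 and 101 CPM in c-fos and 18.2, 0 and 0 CPM in mCherry libraries, intermixed with c-fos. The receptors Fgfr1 and Fgfr2 were at -0.09 ± 0.85 and 0.30 ± 1.22. Of 6 tested Notch genes 5 were positive (median 0.12). That median was negative in 7 of the 18 other settings, down to -0.79 with the stricter filter. Maml3, a coactivator of Notch, was the lone negative member at -2.06 ± 0.91, with mCherry 3 at 1472 CPM and the rest at 13.1 to 168 CPM.

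Receptors for pain and itch signals gave few tested genes, 6 of 27. No count in overlap was held by 15 of the 27, and 6 of those 15 were at 0 in every library of the series. The 3 overlap libraries averaged 199560 total counts and the 6 single-label libraries 266760. Oprk1, the kappa opioid receptor, had 340.0, 64.6 and 33.9 CPM in overlap, 9.74, 44.9 and 56.3 CPM in c-fos and 86.6, 53.9 and 9.44 CPM in mCherry libraries (1.65 ± 0.92). Overlap 1 alone stood above the others. Hrh3, a presynaptic histamine receptor, had 26.2, 0 and 4.24 CPM in overlap, 38.9, 11.2 and 93.8 CPM in c-fos and 105, 99.7 and 113 CPM in mCherry libraries, from 3 counts over the overlap libraries and 104 over the others (ratio 0.0727, exact 95% interval 0.0147 to 0.218, counting error only). c-fos 2 fell within the overlap range. Oprm1, the mu opioid receptor, was at -0.76 ± 1.17, and the list's median of 0.80 turned to -1.27 with the stricter filter. Neuropeptide genes were 8 positive and 5 negative of 13 (median 0.05), and monoamine and acetylcholine receptor genes 5 positive and 3 negative of 8 (median 0.43), with the muscarinic receptor Chrm1 below both groups. Oxidative phosphorylation (13 positive, 17 negative, median -0.11), glycolysis (6 and 6, -0.12) and interferon response genes (5 and 4, 0.02) had no member outside both groups. The medians of the neuropeptide, monoamine receptor, oxidative phosphorylation, glycolysis and interferon lists changed sign in 2 to 11 of the 18 other settings.

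Of the cell type markers, few lay outside both single-label groups. Glutamatergic markers were 5 positive and 4 negative of 9 (median 0.08), and Nrgn was the member below. Markers of basolateral amygdala subregions were negative for 9 of 11 (median -0.71, and -1.14 to -0.07 in other settings), with 0 outside, and those of striatal and central amygdala neurons for 6 of 7 (median -0.49, but 0.19 on the 200-gene scale and 0.03 without mCherry 1). Astrocyte markers gave 5 negative and 2 positive values (median -0.39), oligodendrocyte markers 2 and 2 (0.02), and endothelial and mural markers 3 and 3 (-0.48). On the 200-gene scale the astrocyte and endothelial medians were 0.25 and 0.11, and the glutamatergic median was negative in 8 of 18 other settings. Mbp, a myelin protein, had 13.1, 0 and 0 CPM in overlap, 48.7, 33.6 and 97.6 CPM in c-fos and 59.3, 10.8 and 132 CPM in mCherry libraries, the 1 count of overlap 1 reaching above mCherry 2. The lists of GABAergic neurons, oligodendrocyte precursors and blood cells had 1 tested member each and that of ependyma and choroid plexus 0.

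Pancreatic genes were highest in 2 libraries of different groups, overlap 1 and mCherry 3. Among the remaining libraries their sums were highest in c-fos, lower in overlap 2 and 3 and lowest in mCherry 1 and 2. All 9 tested islet and acinar genes of 16 in the list were positive (median 1.18), and 0 lay outside both groups. Summed over the list they stood at 26939, 1507 and 1194 CPM of the total in overlap 1, 2 and 3, 1543 to 2039 CPM in c-fos and 565, 454 and 11319 CPM in mCherry 1, 2 and 3, and Pdx1 was the gene at 0 throughout. Ins2, an insulin gene, had 15302, 567 and 441 CPM in overlap, 720.5, 557 and 736 CPM in c-fos and 251, 199 and 10616 CPM in mCherry libraries. Its close paralog Ins1, which may share reads with it, followed the same pattern. Without overlap 1 the fold changes of Ins1 and Ins2 turned to -1.77 and -1.63, and the list's median to -0.82. Iapp, the islet amyloid peptide, and Ctrb1, an acinar protease precursor, were also highest in overlap 1 and next in mCherry 3. What these transcripts contribute to other genes in those 2 libraries was not tested. Without both libraries 769 genes lay above and 851 below, among 10372 that then passed the filter. Fewer libraries make separation easier by construction, so these counts cannot be set beside those from all 9 libraries.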

How the data were processed

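The deposited table held whole-number counts per gene for all 9 libraries. The tools named in the submitters' processing notes are featureCounts, STAR, UMI-tools and Trim Galore, and the build is mm9. Roles, versions and strand setting are not stated there. Gene types came from the GENCODE M21 annotation, which held 54809 of 54838 identifiers. Symbols came from a separate list of gene names, and the 115 identifiers without a symbol took 0.222% of counts.

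Counts were filtered with edgeR's filterByExpr (minimum count 10) and TMM-scaled. A quasi-likelihood fit with 3 groups (edgeR 4.0.16, R 4.3.3) gave overlap minus the mean of c-fos and mCherry, adjusted by Benjamini-Hochberg over 7959 genes. Each library measure was compared by an exact permutation test. limma 3.58.1, DESeq2 1.42.0 and the other alternatives are given in the closing section. The floor was 3 counts over a group; intervals cover counting error only.

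The members and gene lists were chosen with earlier results of these data known. Named genes, leaving out predicted models and pseudogenes, were the called genes, those outside both groups with the smallest p over all genes and among the 1000 most abundant, the up to 3 members of each list with the smallest unadjusted p under 0.05, and Fos, Fgf2, Notch2, Ins1, Ins2, Meg3 and Malat1. Any other gene was named after its values were seen, among them further list members outside both groups. A few genes that the rule names are not reported here.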

Additional observations from a re-analysis of the deposited data

How the results depend on the processing

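Across 80 named genes, 1579 values from 20 alternatives were compared with those reported: 1491 kept direction and call, 67 gained a call, 19 lost one (Meg3 8, Malat1 11) and 2 reversed, Ins1 to -1.77 and Ins2 to -1.63 without overlap replicate 1 (3.78 and 3.82 without mCherry replicate 3). The cause was not tested. The 2 calls became 70 with DESeq2, 10 with limma-voom, 0 with DESeq2 size factors, 8 with library sizes only, 179 without a filter, 0 at a minimum count of 20, 0 with single-label libraries pooled as 1 group and 0 without mCherry 3 and overlap 1; unadjusted, edgeR had 925, 470, 732 and 1248 in the 4 settings with 0. Leaving out 1 library gave 1 to 41, the highest without mCherry 3. Replicate numbers were not shown to pair libraries (correlations of 0.0113 to 0.237 over 9 same-numbered pairs); with a replicate block 6 genes were called, and 36 rather than 59 were higher against each group. Genes above numbered 395 on the scale of the 200 most abundant genes (200-gene scale) and 769 without mCherry 3 and overlap 1 (203 to 626 leaving out 1 library), against 145. Genes below numbered 204 with library sizes only, 107 on the 200-gene scale, 473 without a filter, 159 at a minimum count of 20 and 851 without both libraries (383 to 913 leaving out 1), against 313; fewer libraries make separation easier by construction. Higher against each group were 176 with DESeq2, 92 with limma-voom, 116 with DESeq2 size factors, 225 on the 200-gene scale, 397 without a filter and 113 without both libraries (58 to 149 leaving out 1), against 59. Lower against each group were 61 on the 200-gene scale, 324 without a filter, 74 at a minimum count of 20 and 302 without both libraries (118 to 328 leaving out 1), against 161. Fitted levels above both groups numbered 4449, 8291 and 1451 on the 200-gene scale, without a filter and at a minimum count of 20 (2875 to 3907 leaving out 1), and below both 1483, 7283 and 1513 (2998 to 4158). Overlap had 968.5 fewer detected genes at equal depth; leaving out 1 library moved the difference between -1481.5 and -306.5, and without mCherry 3 it was -1478.2 (exact permutation p = 0.0357). Depth limits all rare genes: 3 counts were 33.3 CPM of the total in overlap 1.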
